A study of Rattus norvegicus with 10 samples.

Results

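Potassium channel genes were followed in JUG2 cells, an enteric glial cell (EGC) line from rat. They were taken as the transcript clusters on the array whose gene symbol starts with Kcn, with the brightest cluster per gene: 88 clusters of 86 genes, out of 23188 clusters and 15037 named genes. The rat gene table lists 95 protein-coding genes with such a symbol, so not all of them are among the 86. The paper's table of regulated genes holds 5 Kcn symbols, all already among the 86. That table was chosen on these arrays and is not independent of them. The arrays of the SOX10 line were 4 labelled SOX10 +dox and 4 labelled SOX10 -dox, and the GFP line had 1 array of each kind, GFP +dox and GFP -dox. Doxycycline was given at 1 µg/ml for 48 h to +dox cells and was left out of -dox cells. Both lines carried a doxycycline-dependent transactivator under the EF1a promoter by lentivirus and were grown under puromycin with no cloning step described, the SOX10 line with a doxycycline-responsive Sox10 and the GFP line with a doxycycline-responsive GFP in its place. The values are log2 signals of Clariom S arrays, so that a difference of 1 is 2-fold.

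Potassium channels let potassium leave or enter a cell along its gradient and thereby set the resting potential. Their pore-forming alpha subunits fall into voltage-gated, inwardly rectifying, 2-pore domain and calcium-activated families, and auxiliary subunits change their gating or transport. In glia, inward rectifiers and 2-pore domain channels are known for a very negative resting potential and for taking up potassium that neurons release. In the gut, small-conductance calcium-activated channels such as Kcnn3 are known from interstitial cells that relay inhibitory signals to smooth muscle.

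The induced gene, Sox10, had a log2 signal between 12.62 and 13.02 on SOX10 +dox replicates 2 to 4 and between 6.11 and 6.43 on SOX10 -dox replicates 2 to 4. In replicate 1 it went against both labels, with 6.74 under the label SOX10 +dox and 12.90 under SOX10 -dox. The main comparison therefore used replicates 2 to 4 (3 arrays against 3), and replicate 1 is shown apart, as labelled. Array medians lay between 6.69 and 6.86. Of 6 glial markers, Sox10, Erbb3, Nes, S100b and Ngfr were higher in SOX10 +dox and Gfap did not pass the test (log2 difference 0.23). Averaged over the list, which includes the induced Sox10 itself, the glial markers were at 9.39 to 9.68 in SOX10 +dox and 5.98 to 6.31 in SOX10 -dox. The differences of the members were unequal, with 6.55 for Sox10, 7.34 for Erbb3, 2.21 for Nes, 2.11 for S100b and 1.58 for Ngfr. On the lists of neurons, smooth muscle, fibroblasts, macrophages and endothelium 0 genes passed. With the replicate block 1 did, the smooth muscle marker Tagln, which was lower by a log2 difference of -1.04 (adjusted p = 0.188 without and 0.0127 with the block). Kit, of interstitial cells, was higher (1.29, adjusted p = 0.0346), while Ano1, the other gene of that list, was at -0.36 (adjusted p = 0.631). Epcam, of epithelium, was lower (-0.98, adjusted p = 0.0272), while Krt8 was at -0.17 and Cdh1 at 0.05 and did not pass. The part of these markers, Tagln included, in the results below was not tested. On average the log2 signal of smooth muscle markers was 8.97 to 9.67 in SOX10 +dox and 9.51 to 10.16 in SOX10 -dox, and that of fibroblast markers 9.81 to 9.95 in SOX10 +dox and 9.96 to 10.26 in SOX10 -dox. In RNA from a whole culture, fewer cells that express a gene and less RNA per cell cannot be told apart.

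Of the 86 potassium channel genes, 3 fell in SOX10 +dox and 0 rose (limma, adjusted p under 0.05). The 3 were Kcnn3, the pore of a small-conductance calcium-activated channel, Kcnh1, an ether-a-go-go voltage-gated channel, and Kcng1, a modifier subunit that forms no channel of its own and joins Kcnb subunits. They made up 3.49% of the potassium channel genes, against 1.45% of all transcript clusters that fell, while 2.4% of all clusters rose. With a difference of at least 2-fold in addition, 2 fell (2.33%, against 1.24% of all clusters) and 0 rose (2.26% of all clusters). At an unadjusted p under 0.05, 8 were lower (9.3%, against 7.55%) and 2 higher (2.33%, against 7.23%). With the replicate number as a block, 5 fell (5.81%, against 2.71%) and 0 rose (3.61% of all clusters), the 2 further ones being Kcnh2 and Kcnip3. The calls depended on single arrays. Kcnn3 passed in each of the 6 fits without 1 array, whereas Kcnh1 and Kcng1 passed only without SOX10 +dox replicate 4.

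Over all 86 genes the median log2 difference (SOX10 +dox minus SOX10 -dox) was 0.0025, beside -0.0157 over all transcript clusters. 42 genes had a negative and 44 a positive difference. A difference smaller than 0.5 was seen in 74 of them (86%), beside 81.0% of all clusters. At 2-fold or more, whether or not they passed, 4 genes were lower (4.65%, against 1.67% of all clusters) and 1 was higher (1.16%, against 2.81%). Of the 83 genes that did not pass, 67 had a 95% interval wholly within 2-fold of no difference, and the intervals of the others reached as far as -2.0 and 2.11. The share of all clusters with such an interval was not counted. As 76 of the 86 genes had a mean signal at or below the median over clusters, a narrow interval was not read as proof of no change.

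**Figure D1:**
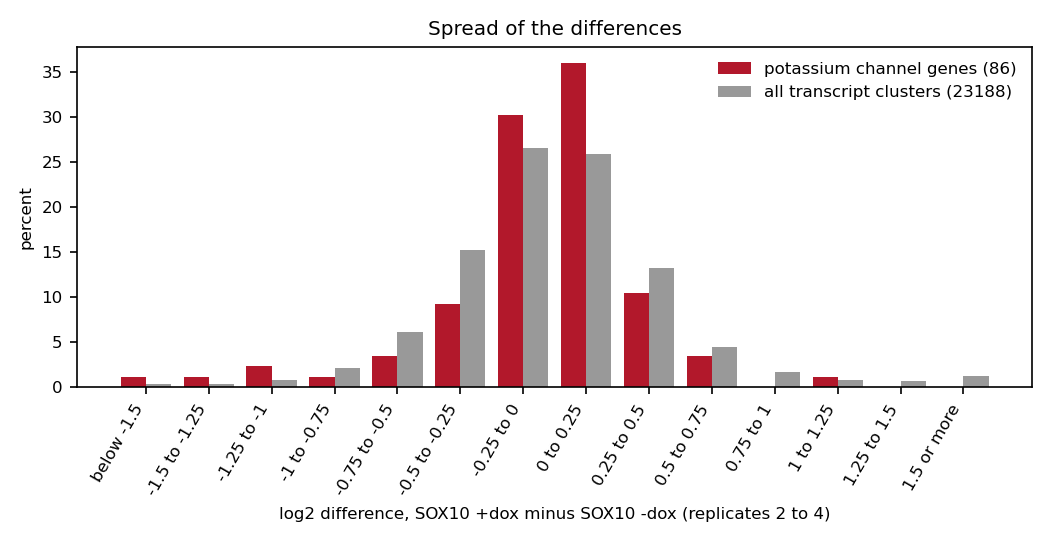
Share of the 86 potassium channel genes and of all 23188 transcript clusters (vertical axis, percent) by log2 difference, SOX10 +dox minus SOX10 -dox, replicates 2 to 4 (horizontal axis). Most genes sit between -0.5 and 0.5, 4 of the potassium channel genes lie at -1 or below, and 1 lies above 1.

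Few of the genes were bright. The mean log2 signal was above the median over clusters (6.76) for 10 of the 86 and below it for 76, and the 3 that passed were all among the 10. Kcna4, Kcnd3, Kcne2, Kcnk4, Kcnn1, Kcnip3 and Kcnk12 were the others. Because each gene is read by its own probes, signals were not ranked between genes. The deposited values carry no detection call, so a low signal was not read as absence. Between 2 arrays of 1 group, 2 to 5 of the 86 genes were 2-fold apart, beside 2.39% to 7.58% of all clusters.

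Promoters (250 bases before to 50 after the start) of 61 of the 86 genes were in the RefSeq table for build GRCr8, among them those of Kcnn3 and Kcnh1, which fell, and of Kcnip3, which fell with the replicate block. These 3 are shown because the genes moved in the same direction and had a promoter there, with letters that SOX proteins are known to bind in capitals, chosen with the values known. Kcng1, which fell too, and Kcnh2, which fell with the replicate block, had no promoter there and were not searched. The letters searched on either strand were AACAAT, then also ACAAAG, and lastly ACAATG, of which the first and the last can overlap. Kcnn3 lies on the plus strand at chr2:177234090-177234389, Kcnh1 on the plus strand at chr13:106252966-106253265 and Kcnip3 on the minus strand at chr3:135195361-135195660, and each runs 5′ to 3′ in the gene's direction.
Kcnn3: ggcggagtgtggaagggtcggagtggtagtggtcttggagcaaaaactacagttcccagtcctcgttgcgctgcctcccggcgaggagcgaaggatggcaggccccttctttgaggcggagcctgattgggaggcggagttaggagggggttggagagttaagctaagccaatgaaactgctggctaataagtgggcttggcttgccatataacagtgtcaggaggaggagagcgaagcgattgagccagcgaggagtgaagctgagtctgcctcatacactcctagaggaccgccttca
Kcnh1: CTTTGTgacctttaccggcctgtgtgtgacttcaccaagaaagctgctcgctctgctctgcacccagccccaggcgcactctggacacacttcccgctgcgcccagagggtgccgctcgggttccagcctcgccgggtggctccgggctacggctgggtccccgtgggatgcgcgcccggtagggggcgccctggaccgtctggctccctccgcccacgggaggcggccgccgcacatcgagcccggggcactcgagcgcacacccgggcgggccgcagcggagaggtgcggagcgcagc
Kcnip3: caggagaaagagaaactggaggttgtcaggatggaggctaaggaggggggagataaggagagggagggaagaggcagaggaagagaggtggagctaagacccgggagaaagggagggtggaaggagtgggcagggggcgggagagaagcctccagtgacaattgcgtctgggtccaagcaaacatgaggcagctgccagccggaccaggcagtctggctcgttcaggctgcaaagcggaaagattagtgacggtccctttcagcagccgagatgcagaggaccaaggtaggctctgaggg
The Kcnh1 promoter held 1 match, at its first base, and those of Kcnn3 and Kcnip3 held 0 in this window. A match was found in 14 of the 61 promoters of potassium channel genes (23.0%) and in 34.0% of the 33469 promoters of the table. The first share counts 1 promoter per gene, while the second counts every entry of the table. These shares are therefore not alike in unit, and no depletion was read from them. The 3 differ in base composition, with 57.0% G and C for Kcnn3, 72.7% for Kcnh1 and 59.0% for Kcnip3, beside a median of 51.7% over the table. A match is a description of letters and no binding site was measured.

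Kcnn3 showed the largest change. Its log2 signal was 6.86, 6.99 and 6.80 on SOX10 +dox replicates 2, 3 and 4, against 9.46, 9.91 and 8.70 on SOX10 -dox replicates 2, 3 and 4. The groups lay far apart, and the SOX10 +dox arrays agreed within 0.10 (SD) while the SOX10 -dox arrays spread by 0.61 (SD). The difference was -2.47 ± 0.29 (SE), or 5.54-fold lower in SOX10 +dox (adjusted p = 7.29e-04). In replicate 1 it was 9.62 under the label SOX10 +dox and 6.62 under SOX10 -dox, each close to the arrays of the opposite label. On the GFP arrays the signal was 8.71 with and 9.58 without doxycycline, a difference of -0.87 that has no replicate. Pdgfra, known from the interstitial cells of the gut that carry this channel, differed by -0.63 (adjusted p = 0.434) in the SOX10 line and by -0.73 between the GFP arrays. Its part in the difference of Kcnn3 was not tested. Of the other genes on the fibroblast list that holds Pdgfra, Col1a1 (-0.42) and Dcn (-0.18) were lower, Lum (0.48) was higher, and none passed. Of the relatives of Kcnn3, Kcnn2 was not among the 86 genes, and Kcnn1 and Kcnn4 moved less. Kcnn1, of the same small-conductance subfamily, gave 8.30, 8.49 and 7.95 on SOX10 +dox and 8.52, 8.64 and 9.06 on SOX10 -dox replicates 2 to 4. These groups did not overlap, but the difference of -0.49 ± 0.24 (SE) did not pass the test (adjusted p = 0.395), and the GFP arrays differed by 0.44. Kcnn4, the intermediate-conductance channel, was dim on all arrays and differed by -0.25 (adjusted p = 0.689).

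Kcng1 gave 10.67, 10.56 and 11.52 on SOX10 +dox replicates 2, 3 and 4, against 12.08, 11.94 and 12.18 on SOX10 -dox. SOX10 +dox replicate 4 was much closer to the SOX10 -dox arrays than replicates 2 and 3 were. The difference was -1.15 ± 0.28 (SE), or 2.22-fold lower (adjusted p = 0.0428). On the arrays labelled replicate 1 the signal was 12.07 for SOX10 +dox and 11.05 for SOX10 -dox. The GFP line gave 11.54 with and 11.85 without doxycycline, a difference of -0.31 in the same direction. The other modifiers of this class, Kcng2, Kcng3 and Kcng4, differed by -0.06 to 0.05 and did not pass. Kcnb2, the only Kcnb gene measured, differed by -0.13 (adjusted p = 0.903).

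Kcnh1 gave 8.68, 8.93 and 9.08 on SOX10 +dox replicates 2, 3 and 4, against 9.84, 9.87 and 9.92 on SOX10 -dox. The SOX10 -dox arrays were nearly equal (SD 0.04) and all SOX10 +dox arrays lay below them. The difference was -0.98 ± 0.21 (SE), just under 2-fold (adjusted p = 0.0265). On the arrays labelled replicate 1 it was 9.93 for SOX10 +dox and 8.57 for SOX10 -dox. The GFP arrays gave 9.20 with and 9.81 without doxycycline, a difference of -0.61.

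Kcnh2, the ether-a-go-go-related channel known for repolarising the heart, gave 6.45, 5.53 and 6.42 on SOX10 +dox replicates 2, 3 and 4, against 7.27, 7.11 and 7.21 on SOX10 -dox. The groups did not overlap and the spread was on the SOX10 +dox side. The difference of -1.07 ± 0.27 (SE) missed the threshold (adjusted p = 0.0576) and passed it with the replicate block (adjusted p = 0.0228). Unlike the 3 genes above, it was higher on the GFP +dox array (7.61) than on the GFP -dox array (7.07). The arrays labelled replicate 1 gave 7.01 for SOX10 +dox and 5.91 for SOX10 -dox.

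Kcnip3 encodes a calcium-binding protein that joins Kcnd channels and is also known as a transcriptional repressor. It gave 9.11, 8.64 and 9.43 on SOX10 +dox replicates 2, 3 and 4, against 10.06, 9.89 and 11.06 on SOX10 -dox. In both groups replicate 4 was the highest and replicate 3 the lowest. The difference of -1.28 ± 0.33 (SE) had an adjusted p of 0.0596, and of 0.00736 with the replicate block. The GFP arrays gave 10.63 with and 11.42 without doxycycline, a difference of -0.79. On the arrays labelled replicate 1 the signal was 10.40 for SOX10 +dox and 9.26 for SOX10 -dox. Its relative Kcnip4 gave 5.71, 6.07 and 5.72 on SOX10 +dox and 6.84, 6.53 and 6.29 on SOX10 -dox, groups that did not overlap, with a difference of -0.72 that did not pass (adjusted p = 0.143). The Kcnd channels that these proteins bind differed by -0.13 to 0.15.

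Kcnk12, a 2-pore domain subunit, had the largest difference in the upward direction. It gave 8.57, 9.46 and 7.94 on SOX10 +dox replicates 2, 3 and 4, against 7.63, 6.73 and 7.86 on SOX10 -dox. The groups were separate by a narrow margin, and the 2 replicate 4 arrays were only 0.08 apart. The difference of 1.25 ± 0.39 (SE) did not pass (adjusted p = 0.133). It passed without SOX10 +dox replicate 4 (adjusted p = 0.0400) and without both replicate 4 arrays (adjusted p = 0.0453), an alternative chosen after seeing the data. On the arrays labelled replicate 1 the gap was wider, with 7.10 for SOX10 +dox and 10.34 for SOX10 -dox, while the GFP arrays gave 7.35 with and 7.50 without doxycycline.

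**Figure D2:**
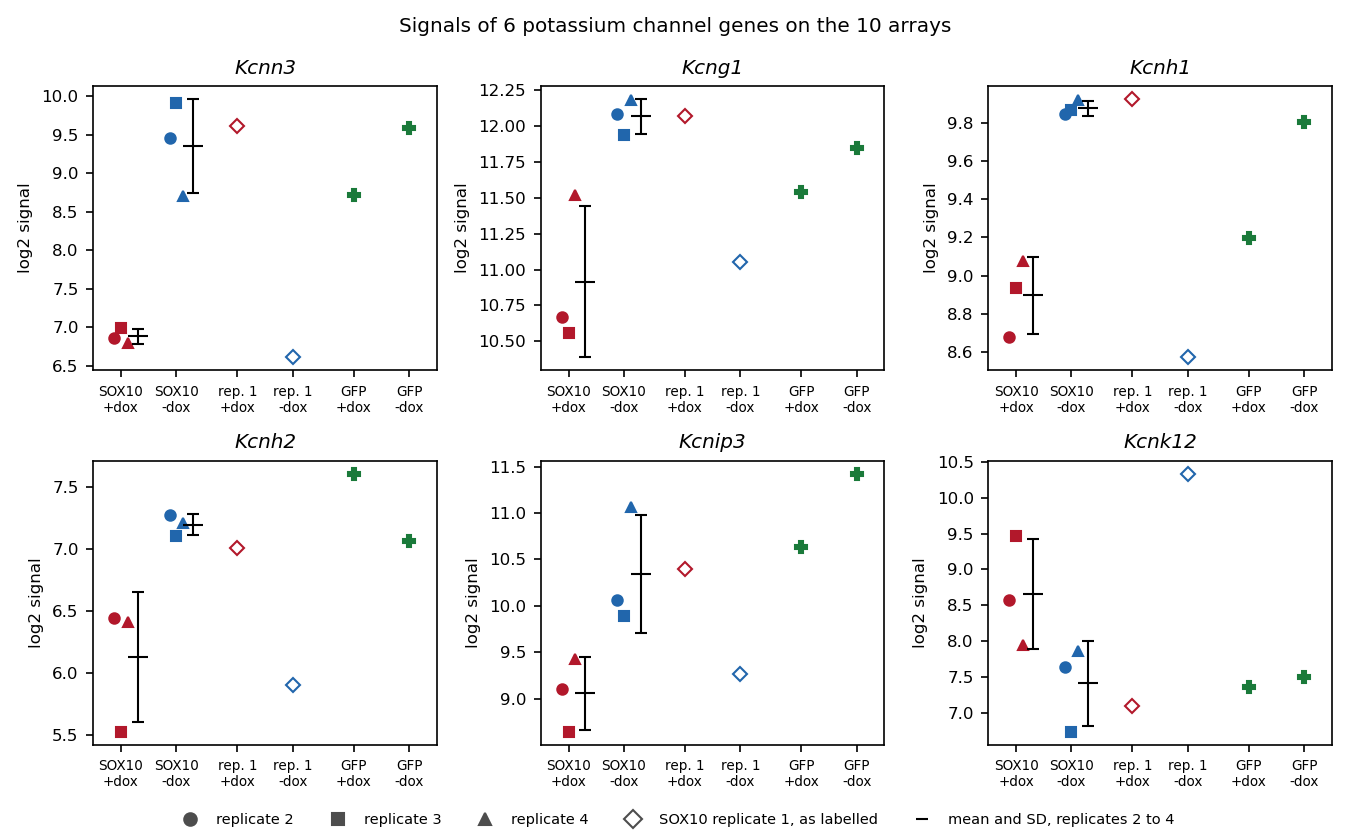
Log2 signal (vertical axis) of 6 potassium channel genes on each array: SOX10 +dox and SOX10 -dox replicates 2 to 4 with mean and SD, the replicate 1 arrays as labelled (open diamonds) and the GFP arrays (crosses). In 5 genes the SOX10 +dox arrays of replicates 2 to 4 lie below all SOX10 -dox arrays, in Kcnk12 they lie above, and the replicate 1 arrays show the opposite order.

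By family, 2 of 36 voltage-gated alpha subunits fell (median difference -0.0015), 0 of 15 inward rectifiers (0.0329), 0 of 13 2-pore domain channels (0.0034), 1 of 6 calcium- and sodium-activated alpha subunits (-0.23) and 0 of 16 auxiliary subunits (0.0354), and 0 rose in each. At an unadjusted p under 0.05 these families held 4, 0, 0, 1 and 3 genes that were lower and 0, 0, 1, 0 and 1 that were higher, beside 7.55% of all clusters that were lower and 7.23% that were higher.

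Among voltage-gated channels the class of ether-a-go-go channels (Kcnh) held 7 of 8 genes with a negative difference and a median of -0.28, although 1 passed. Over all transcript clusters 12001 of 23188 had a negative difference, and so had all 3 Kcnn and all 3 Kcnq genes. Kcnh3 (-0.11), Kcnh7 (-0.11) and Kcnh8 (-0.02) were close to no difference. Kcnh4 was at -0.49 ± 0.22 (SE, adjusted p = 0.328) and Kcnh6 at -0.44, and Kcnh5 went the other way at 0.51 (adjusted p = 0.403). The 8 Shaker channels (Kcna), known for delayed-rectifier and A-type currents of neurons and of glia, lay between -0.12 and 0.41. Kcna6 had the smallest p among them, with a difference of 0.41 ± 0.26 (SE, adjusted p = 0.535). In the remaining classes with 3 or more genes the smallest p belonged to Kcnc4 (0.15), Kcnd3 (0.15), Kcnq3, a subunit of the M-current channel (-0.24), and Kcns3, a silent modifier (0.16). None of these 4 passed.

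The 15 inward rectifiers (Kcnj) lay between -0.51 and 0.42. Kcnj10, the main potassium uptake channel of astrocytes and of satellite glia, gave 3.45, 3.40 and 3.89 on SOX10 +dox replicates 2, 3 and 4, against 3.08, 3.24 and 3.16 on SOX10 -dox. The groups did not overlap, all 6 signals were below 4, and the difference of 0.42 ± 0.22 (SE) did not pass (adjusted p = 0.437). It was -0.59 between the GFP arrays. Kcnj16, which can assemble with Kcnj10, differed by -0.51 (adjusted p = 0.472).

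Apart from Kcnk12, the 2-pore domain channels (Kcnk) lay between -0.31 and 0.55. Kcnk1, which carries a weak inward-rectifying leak, was at 0.55 ± 0.27 (SE, adjusted p = 0.400), with a difference of 0.86 between the GFP arrays.

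Of the auxiliary subunits, Kcne5, a small membrane protein that damps Kcnq1 currents, gave 4.12, 4.40 and 4.47 on SOX10 +dox replicates 2, 3 and 4, against 4.75, 4.84 and 5.38 on SOX10 -dox. Its difference of -0.67 ± 0.24 (SE) did not pass (adjusted p = 0.206), and between the GFP arrays it was 0.48. Kcnmb4, the beta subunit of the large-conductance channel that is best known from the brain, gave 5.05, 5.87 and 5.02 on SOX10 +dox, against 4.93, 4.78 and 4.06 on SOX10 -dox. Its groups were narrowly separate and the difference of 0.72 ± 0.31 (SE) did not pass (adjusted p = 0.302), with 0.82 between the GFP arrays. The pore of that channel, Kcnma1, differed by 0.50 (adjusted p = 0.422). The cytoplasmic beta subunits of Shaker channels differed little, Kcnab3 having the smallest p (0.23, adjusted p = 0.777).

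**Figure D3:**
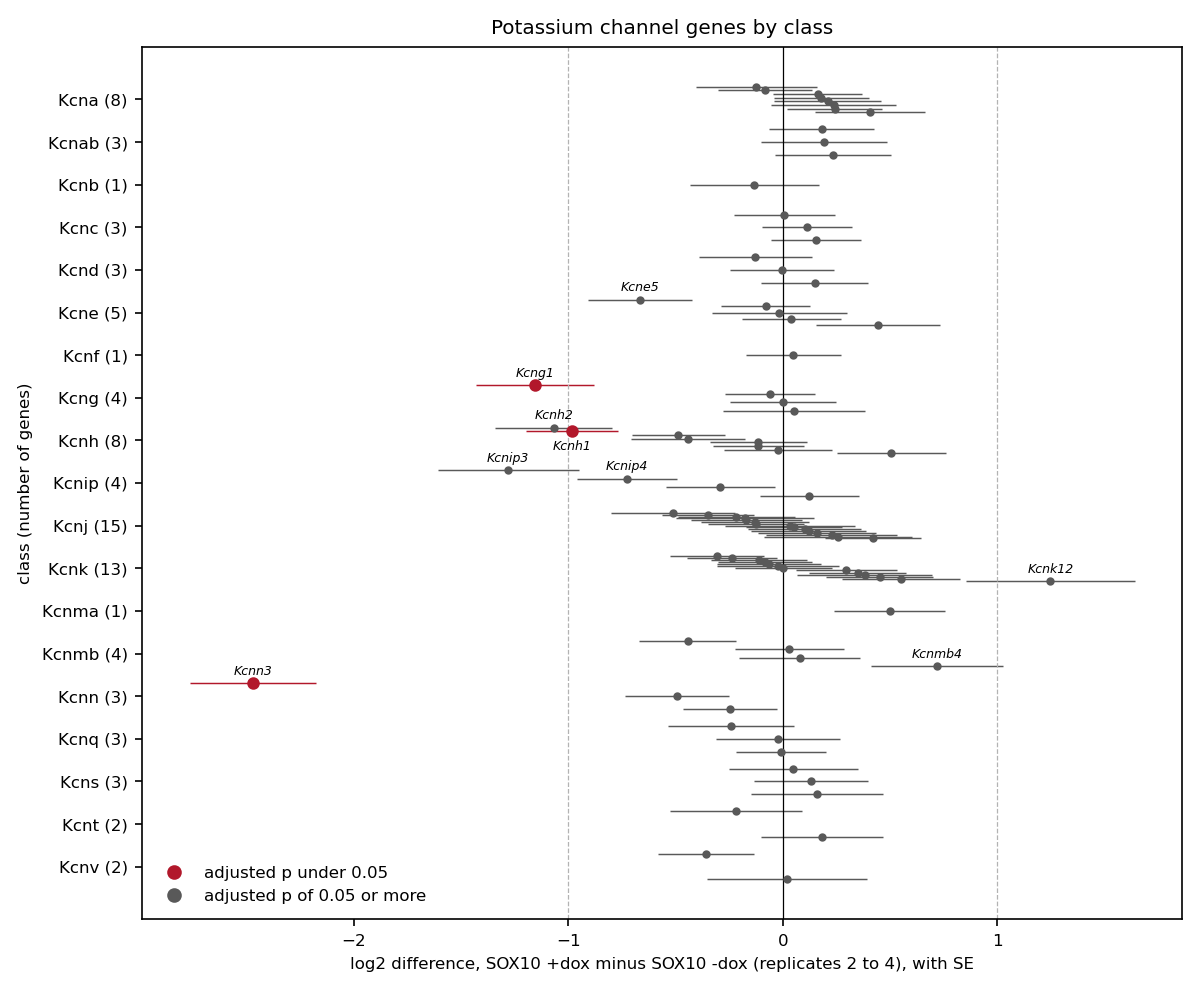
Log2 difference, SOX10 +dox minus SOX10 -dox (replicates 2 to 4, horizontal axis) with its SE, for each of the 86 genes by class (vertical axis, number of genes in brackets); red marks the 3 genes with an adjusted p under 0.05. Kcnn3 stands farthest to the left at -2.47 and Kcnk12 farthest to the right at 1.25, and most classes lie around 0.

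Groups did not overlap for 14 genes that were lower in SOX10 +dox (16.3%, against 10.5% of all transcript clusters) and for 6 that were higher (6.98%, against 9.5%). Of these genes without overlap, the pair labelled replicate 1 went the other way for 11 of the 14 lower and for 5 of the 6 higher. The same was true of 9 of the 10 genes with an unadjusted p under 0.05, the 3 that passed included. In the pairs of equal replicate number, 33 of the 86 genes had the same sign in replicates 2, 3 and 4, 19 of them negative and 14 positive. Shares over all clusters were not counted for these signs, so the counts have no reference beside them. With all 8 SOX10 arrays as labelled (4 against 4), 0 of the 86 genes passed, as did 0% of all clusters, and 2 had an unadjusted p under 0.05 (2.33%, against 3.72%). In that fit the difference of Kcnn3 was -1.10 ± 0.74 (SE), that of Kcng1 -0.61 ± 0.36 and that of Kcnh1 -0.40 ± 0.35 (adjusted p = 0.973 for each).

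**Figure D4:**
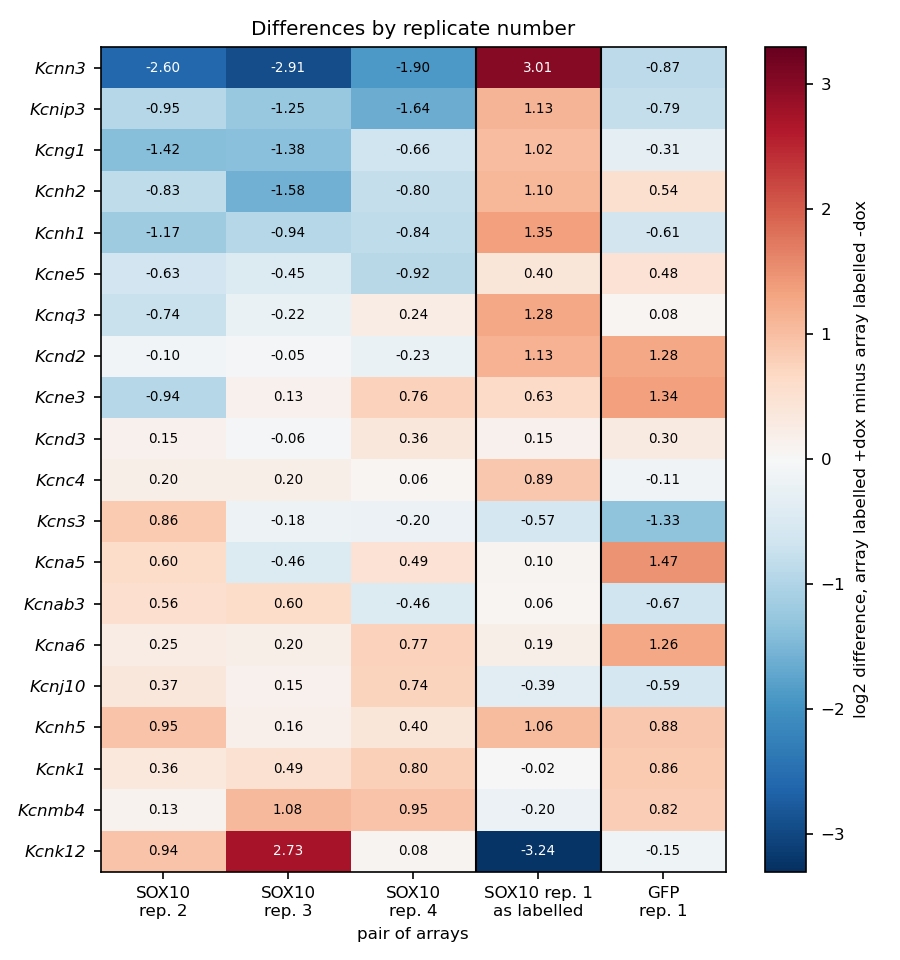
Log2 difference (colour, printed in each cell) between the array labelled +dox and the array labelled -dox of equal replicate number, for 20 potassium channel genes (rows) and 5 pairs of arrays (columns). The genes at the top were lower and Kcnk12 at the bottom was higher in SOX10 replicates 2 to 4, with the opposite sign in SOX10 replicate 1 as labelled.

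The GFP line was given doxycycline, which also induces GFP in it, with 1 array per group and no test. Doxycycline and induced GFP cannot be told apart in that pair. Of the 86 genes, 1 was at least 2-fold lower on the GFP +dox array (1.16%, against 2.27% of all clusters) and 4 were at least 2-fold higher (4.65%, against 3.66%). The lower one was Kcns3, with 4.13 on GFP +dox and 5.46 on GFP -dox. The higher ones were dim. Kcna5 gave 4.97 on GFP +dox and 3.50 on GFP -dox, and Kcne3, an accessory subunit known from gut epithelium, 5.52 on GFP +dox and 4.17 on GFP -dox. Kcnd2, an A-type channel, gave 6.19 on GFP +dox and 4.91 on GFP -dox, and Kcna6 5.90 on GFP +dox and 4.64 on GFP -dox. In the SOX10 line these 5 genes differed by -0.13 to 0.41 and did not pass. The 3 genes that fell in the SOX10 line, and Kcnip3, were lower on GFP +dox as well, by less. Whether the effect of doxycycline differed between the lines was tested directly, on the assumption that single GFP arrays vary like SOX10 arrays. The difference of effects (SOX10 line minus GFP line) was -1.60 ± 0.59 (SE) for Kcnn3 (adjusted p = 0.435), -0.84 ± 0.55 for Kcng1 (adjusted p = 0.710), -0.37 ± 0.43 for Kcnh1 (adjusted p = 0.865) and -1.61 ± 0.54 for Kcnh2 (adjusted p = 0.391). It passed the test for 0 of the 86 genes (0.384% of all clusters), and 7 had an unadjusted p under 0.05 (8.14%, against 9.04%). A change particular to the SOX10 line was therefore not shown for any potassium channel gene.

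Some of these genes lie side by side in the rat genome. In GRCr8, 18 of them formed 10 pairs with no other protein-coding gene between, such as Kcna5, Kcna1 and Kcna6 on chromosome 4, Kcna3, Kcna2 and Kcna10 on chromosome 2, and Kcnj16 and Kcnj2 on chromosome 10. The log2 differences of the 18 lay between -0.51 and 0.42, and the smallest adjusted p was 0.437. The 3 genes that fell were not among them.

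Genes that work alongside potassium channels were read from 7 lists with 49 measured genes, namely pacemaker channels, subunits of the sodium pump and their regulators, cation-chloride cotransporters, potassium-dependent exchangers, channel-binding proteins and KCTD proteins. Of these, 3 fell in SOX10 +dox, where 1.45% of all clusters fell, and 0 rose, with a median of -0.0040. At an unadjusted p under 0.05, 6 of the 49 were lower, where 7.55% of all clusters were, and 4 were higher, where 7.23% of all clusters were. Slc24a3, an exchanger that moves sodium in and calcium with potassium out, gave 12.44, 12.42 and 12.43 on SOX10 +dox replicates 2, 3 and 4, against 13.94, 14.13 and 13.55 on SOX10 -dox. The SOX10 +dox arrays were almost identical, and the difference was -1.45 ± 0.23 (SE, adjusted p = 0.00429). Kctd16, an auxiliary subunit of GABA-B receptors, differed by -1.38 ± 0.25 (SE, adjusted p = 0.00973), with 6.13 to 6.59 on SOX10 +dox and 7.29 to 7.86 on SOX10 -dox. Hcn4, the pacemaker channel of the sinus node, differed by -1.11 ± 0.23 (SE, adjusted p = 0.0228), with 8.78 to 9.36 on SOX10 +dox and 9.97 to 10.34 on SOX10 -dox. Between the GFP arrays these 3 differed by -0.31, 0.16 and -0.58.

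With the replicate block, 5 of the 49 fell and 3 rose, in a fit in which 2.71% of all clusters fell and 3.61% rose. The further ones that fell were Kctd6 and Cntn2, an axonal adhesion protein that gathers Shaker channels beside nodes. Those that rose were Atp1b2, the sodium pump's beta subunit of glia (2.06 ± 0.52 SE, adjusted p = 0.0562 without and 0.00240 with the block), Atp1b1 (1.29 ± 0.38, 0.104 without and 0.0132 with it) and Slc12a2, the sodium-potassium-chloride cotransporter that carries potassium into cells (1.04 ± 0.31, 0.104 without and 0.0122 with it). Atp1b2 gave 5.71, 5.67 and 7.90 on SOX10 +dox replicates 2, 3 and 4, against 4.07, 4.04 and 4.98 on SOX10 -dox, so that replicate 4 was the highest in both groups. The pair labelled replicate 1 differed by -0.02 for Atp1b2, -1.83 for Atp1b1 and -1.43 for Slc12a2. Between the GFP arrays, Kctd6 differed by -0.55 and Cntn2 by -0.89, in the same direction as in the SOX10 line. Atp1b1 differed there by 0.55, also in the same direction, and Atp1b2 and Slc12a2 by -0.57 each, in the opposite one.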

How the data were processed

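RNA of JUG2 cells had been hybridized to 10 Clariom S arrays, from 4 independent experiments per the methods for the SOX10 line. The authors deposited 1 log2 signal per probe set and array, made with the Transcriptome Analysis Console. The summarization, normalization and genome build behind these values are not given in the sources used here. Of 24834 probe sets, 1646 controls were left out and 23188 transcript clusters were kept. The values were used as deposited, with symbols from the platform annotation, all 86 of which matched the rat gene table of GRCr8. A cluster that also carries a second symbol was not used. For Kcnip2, with 3 clusters, the brightest was taken.

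The 4 groups (SOX10 +dox and -dox replicates 2 to 4, and the single GFP arrays) were fitted in 1 model with limma 3.58.1 in R 4.3.3 (lmFit and eBayes, 4 residual degrees of freedom), with Benjamini-Hochberg adjustment over all clusters. A gene passed the test, fell or rose at an adjusted p under 0.05. The precision was limited by the number of arrays. Errors are standard errors of the fit unless called SD, and intervals are at 95%. Deviations of arrays with the same number from their group means correlated by 0.194, 0.15 and 0.411 for replicates 2, 3 and 4, so the numbers were taken to pair the arrays and the fit with the replicate number as a block is given where it changed a call. The script was tested on simulated data.

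Genes were named if they passed, stood in the paper's table of regulated genes, were among the 4 largest differences in either direction, had the smallest p in a class of 3 or more, or were among the 3 largest differences in either direction between the GFP arrays. Kcnn1, Kcnn4, Kcnip4, Kcnh4, Kcnh6, Kcnj16, Kcnma1, Kcnb2 and the genes named for their place in the genome or their brightness fall outside this rule and were chosen after their values were seen, as were the partner genes that passed with the block only. The members and lists were chosen with earlier results of these data known. Alternatives were other array sets, the block, normalizations, a filter, variance models, thresholds, every cluster of a gene, and leaving out single arrays. Promoters were read with Python 3.11.15.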

Additional observations from a re-analysis of the deposited data

Results flagged for a closer look

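Within the 4 arrays of a SOX10 group as labelled, 1 array stood far from the others by Dixon's criterion in 6 of 42 groups of values examined, where chance flags about 1 in 20. That rate is no measure for these values, since the genes examined were Sox10 and genes named largely for their difference between the groups. In 5 of the 6 it was a replicate 1 array, the replicate already set apart for Sox10. Sox10 had a log2 signal of 6.74 on the array labelled SOX10 +dox replicate 1 and of 12.9 on the array labelled SOX10 -dox replicate 1. Kcnn3 had 9.62 in replicate 1 under the label SOX10 +dox, above the other arrays of that label. Under the label SOX10 -dox, replicate 1 had Kcnh1 at 8.57 and Kcnh2 at 5.91, below the others of that label. The remaining value was that of Kcnmb4, at 4.06 on SOX10 -dox replicate 4, where the other SOX10 -dox arrays gave 4.78 to 4.93.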

How the results depend on the processing

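Among the potassium channel genes, 3 fell and 0 rose in SOX10 +dox, and 2 fell at 2-fold or more. With all 8 SOX10 arrays as labelled 0 fell by either count. With the replicate block 5 fell, 4 of them at 2-fold or more. Array weights gave 5 that fell by either count and 1 that rose (Kcnk12), in a fit in which calls over all clusters also increased, to 549 lower and 823 higher, against 336 and 557 in the comparison as reported. Leaving out the dimmest 0.25 of the clusters kept 38 of the 86 genes, of which 5 fell, 4 at 2-fold or more (385 lower and 611 higher over all clusters kept). An adjusted p under 0.01 left 1 (Kcnn3). Quantile normalization left 2 that fell, 1 of them at 2-fold or more (Kcng1 had an adjusted p of 0.0577), and median centring gave 4. Without single SOX10 arrays the number that fell ranged from 1 to 5 (1 to 5 at 2-fold or more) and the number that rose from 0 to 1 by either count. It was 1, Kcnn3, without SOX10 -dox replicate 2, 3 or 4 or SOX10 +dox replicate 2 or 3, and 5 (with Kcnh2 and Kcnip3) without SOX10 +dox replicate 4. Over all clusters, fits without 1 array called 140 to 347 lower and 333 to 658 higher, with 347 and 658 without SOX10 +dox replicate 4. Without both replicate 4 arrays, chosen after seeing the data, 3 fell and 1 rose (Kcnk12).

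Of the partner genes, 3 fell and 0 rose. 0 fell with all arrays as labelled, and 5 fell and 3 rose with the block. 3 rose with array weights and without both replicate 4 arrays, and 1 rose with quantile normalization, median centring, the filter on dim clusters or a mean-variance trend. Without single arrays 1 to 3 fell, the lowest count without SOX10 -dox replicate 2 or SOX10 +dox replicate 3, and 0 to 4 rose, the highest without SOX10 +dox replicate 4. In the GFP line, the filter left 0 genes that were 2-fold lower and 2 higher, and at 1.5-fold 10 were lower and 16 higher. The shares of all clusters under the filter and at 1.5-fold were not counted, so these counts have no reference beside them. The cause of the changes between settings was not tested. Kcnn3, Kcng1 and Kcnh1 kept a negative difference under every alternative run, and the median over the genes lay between -0.0643 and 0.0513. Among the named genes the replicate block changed no call other than those of Kcnh2 and Kcnip3. The difference of effects between the lines passed for 0 genes under each alternative run. The number of arrays, and 1 array per group in the GFP line, limit what differences could be detected.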
